A study of Mus musculus with 4 samples.

Results

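The semaphorin, plexin, neuropilin, Eph receptor, ephrin and teneurin genes were followed through tumour cells of the mouse colon, cultured in RPMI medium. The rows were picked by gene name, but the families were chosen with earlier results of these data known. Such a name was carried by 57 of the 41457 rows of the count table. These were 20 semaphorins, 9 plexins, 2 neuropilins, 14 Eph receptors, 8 ephrins and 4 teneurins. A further 3 antisense rows named after Plxna4 were left out, and each had 0 counts in every library. The samples were 3 mutant lines, M8, M32 and M83, set against 1 control sample that the labels call only "control". The lines share the single genotype label "ENU mutant". ENU (N-ethyl-N-nitrosourea) alkylates DNA and leaves mainly point mutations, and the mutated genes are not named in the sources used here. Each sample is 1 column of poly(A) RNA counts and is called a library. Whether a column sums several cultures, whether a line is 1 clone and whether the lines and the control share a parent culture are not stated, so a difference from control may also be a difference between cultures.

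These families carry contact and guidance signals between cells. Semaphorins bind plexins, and most secreted class 3 semaphorins need a neuropilin as co-receptor. Ephrins are membrane-bound ligands of the Eph receptor tyrosine kinases, and in the intestinal crypt the ephrin-B and EphB genes are known for sorting cells along the crypt axis. Teneurins are large transmembrane proteins that bind latrophilins and FLRT proteins on neighbouring cells, and they are best known from the wiring of neurons.

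The libraries held between 25818148 counts (control) and 28879954 counts (M8). Levels are given as CPM, the counts of a gene per 1000000 counts of the TMM-scaled library, and levels of different genes are compared only as CPM per kilobase of annotated exon. Of the 14 epithelial and colonic markers Epcam, Cdx2 and Muc2 had 0 counts in every library, 9 others had at most 30, and the keratin genes Krt18 and Krt20 had between 710 and 3667. The 14 markers summed to 180 CPM in M8, 73.8 CPM in M32 and 160 CPM in M83, against 104 CPM in control, while the mesenchymal filament gene Vim had between 115473 and 146659 counts. The summed level of the 9 endothelial markers was at most 1.21 CPM and that of the 10 leukocyte markers at most 2.35 CPM. The 15 neuron and glia markers summed to 660 CPM in M8, 217 CPM in M32 and 600 CPM in M83, against 348 CPM in control, nearly all of it from the neurofilament genes Nefm and Nefl and from Tubb3, and Rbfox3 and Sox10 had at most 2 counts. The 10 mesenchymal and fibroblast markers summed to 8450, 10002 and 9275 CPM in M8, M32 and M83, against 8142 CPM in control, and Thy1 had 0 counts in every library. In bulk RNA, fewer cells of a type and less RNA per cell cannot be told apart.

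Not every one of these genes had counts. Of the 57 members 28 reached 50 counts in at least 1 library, 36 passed edgeR's filter on low counts, and 9 had 0 counts throughout. Of all 41457 rows 11156 reached 50 counts, 13576 passed the filter and 20208 had 0 counts throughout. A count of 0 allows up to 0.118 CPM in control and up to 0.111 CPM in a line. Plexins made up the largest summed level, with 168, 157 and 128 CPM per kilobase in M8, M32 and M83, against 130 CPM per kilobase in control. Eph receptors followed with 84.6, 77.8 and 94.9 CPM per kilobase in the lines, against 99.6 CPM per kilobase in control. In each of these families 1 gene held most of the level, the B-class plexin Plxnb2 and the ephrin-A receptor Epha2. The 5 Eph receptors at 0 were Epha3, Epha6, Epha7, Epha8 and Ephb1, and Sema4f, Sema5b, Sema6a and Tenm2 were at 0 as well. All 8 ephrins had counts in every library.

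**Figure D1:**
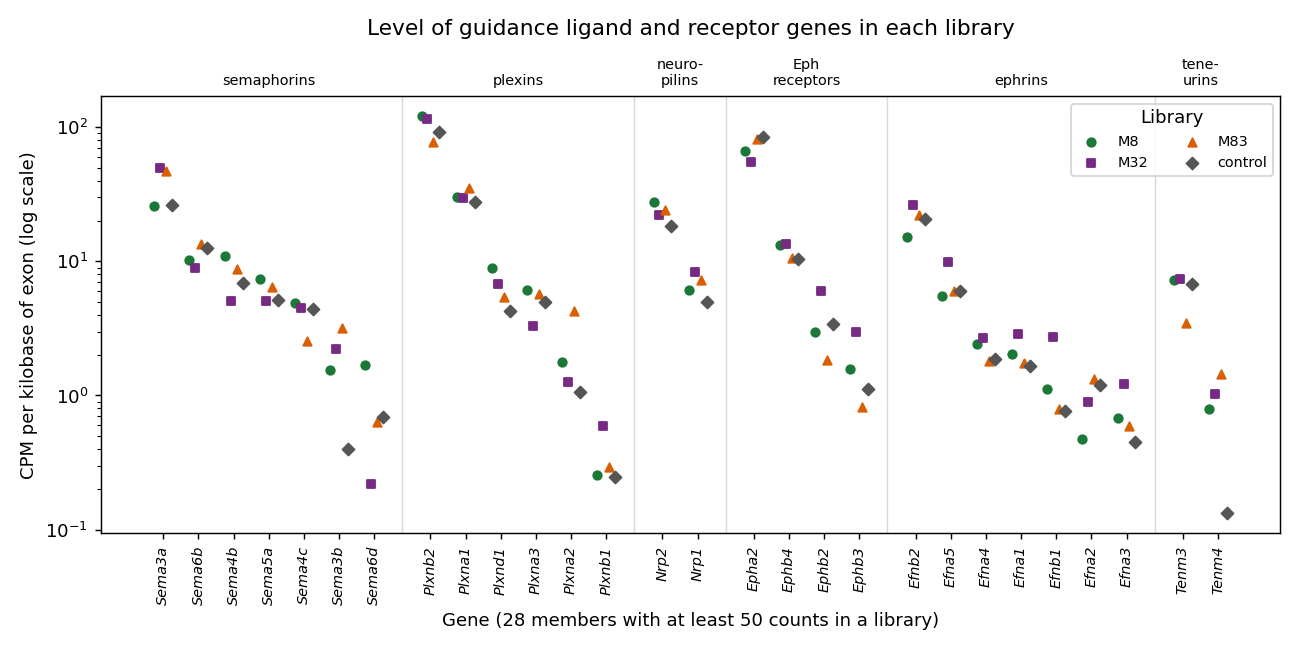
Level of each of the 28 members with at least 50 counts in a library, as CPM per kilobase of exon on a log axis, with 1 point for each of the libraries M8, M32, M83 and control. Plxnb2, Epha2 and Sema3a stand highest in their families, and Tenm4 in control lies far below Tenm4 in the 3 lines.

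The first comparison set the 3 lines together against control. No member passed edgeR's quasi-likelihood test at an adjusted p under 0.05, where 0.00737% of the 13576 tested genes passed (1 gene, not a member). At an unadjusted p under 0.05 edgeR listed 3 members, Tenm4, Sema3b and Sema7a, all higher in the lines, against 3.30% of all tested genes. DESeq2 called 2 members, Tenm4 and Sema3b, against 0.316% of the genes to which it gave an adjusted p. The fit has 2 residual degrees of freedom and its lone control is assumed to vary like the lines, so these p-values measure only the spread between 3 different mutants. All 3 lines lay above control for 16 of the 36 tested members and below it for 2, against 23.3% and 21.3% of all tested genes, and the same control library enters each of these comparisons. The members' median log2 ratio to control stood at 0.29 (M8), 0.44 (M32) and 0.27 (M83), beside medians of 0.02, -0.00043 and 0.0069 over all tested genes.

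The lines were next compared with control 1 by 1, without a test. A member was counted as higher or lower when its log2 ratio after TMM scaling, computed with a prior count of 2, reached 1 in size, the higher library held at least 50 counts, and the exact 95% interval of the ratio left out 1. A stricter rule asked for a log2 ratio of at least 2 and an interval that left out 2-fold. In M8 4 members were higher and 1 lower of the 27 with enough counts, where 3.73% of all genes were higher and 2.05% lower. In M32 6 members were higher and 1 lower of 28, beside 4.86% and 1.15% of all genes. In M83 3 members were higher and 0 lower of 27, beside 5.19% and 1.27% of all genes. By the stricter rule Tenm4 was higher in M8, and Tenm4 and Sema3b were higher in both M32 and M83, where 0.795%, 1.13% and 1.08% of all genes were higher in M8, M32 and M83. No member met the stricter rule for lower levels, which 0.564%, 0.277% and 0.275% of all genes met. The highest library was at least 2-fold above the lowest for 13 of 28 members, beside 17.3% of all genes with at least 50 counts.

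**Figure D2:**
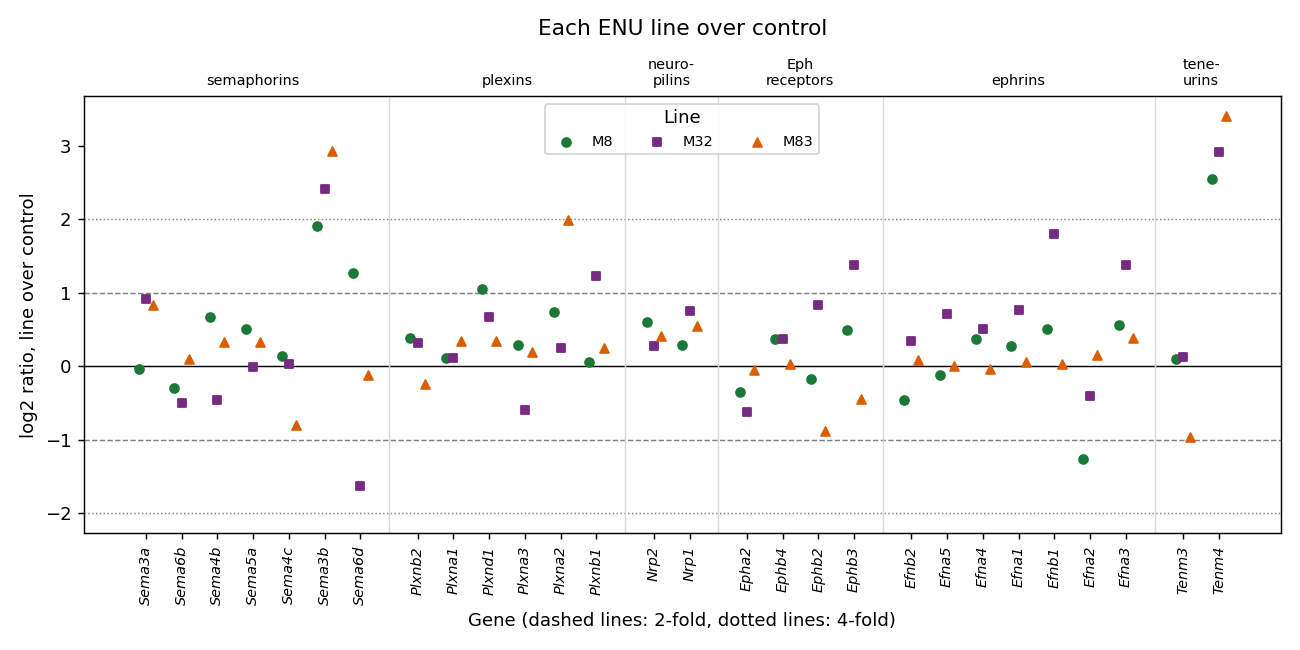
Log2 ratio of each line over control for the same 28 members, grouped by family, with dashed lines at 2-fold and dotted lines at 4-fold. Sema3b and Tenm4 lie above 0 in all 3 lines, Plxna2 stands out in M83, and Efnb1, Ephb3, Efna3 and Plxnb1 stand out in M32.

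Tenm4, a teneurin gene, had the largest difference shared by the lines among members with at least 50 counts. It had 475 counts in M8, 586 in M32 and 872 in M83, against 71 in control. Every line lay well above the control library, with M83 highest. The level was 22.8 ± 6.81 CPM in the lines (SD, n = 3) against 2.78 CPM in control. The ratio to control was 5.995 in M8 (95% exact interval 4.66 to 7.81), 7.76 in M32 (6.06 to 10.1) and 10.8 in M83 (8.50 to 14.0). The log2 difference was 3.03 (SE 0.463), with an edgeR adjusted p of 0.946 and a DESeq2 adjusted p of 2.69e-08, so the call depends on the tool. The gene (ENSMUSG00000048078) spans chr7:96171246-96911093 on the plus strand of GRCm38 and is protein-coding. A noncoding gene on the opposite strand, C230038L03Rik, overlaps 4.70% of its exons and had 0 counts in every library.

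The other teneurins did not share this pattern. Tenm3 had 2114 counts in M8, 2052 in M32 and 1032 in M83, against 1773 in control. It was close to control in M8 and M32 and lowest in M83, where the ratio was 0.514 (95% exact interval 0.475 to 0.555), a log2 ratio of -0.96 that just missed the 2-fold limit. Per kilobase of exon Tenm3 stood above Tenm4 in every library, by 3.48 against 1.43 CPM per kilobase in M83 and by 6.79 against 0.132 CPM per kilobase in control. Tenm1 had 2 counts in M83 and 0 elsewhere, and Tenm2 had none. Among 10 partner genes of the teneurins 8 were tested, 0 passed, and 4 lay above control in all lines, as did 23.3% of all tested genes. Flrt2, which encodes an adhesion protein that teneurin-bound latrophilins also bind, had 902, 1084 and 2380 counts in M8, M32 and M83, against 619 in control, and was past the 2-fold rule in M83 alone. Flrt3 of the same family had 104, 38 and 133 counts in the lines, against 95 in control, and was past it downwards in M32.

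Sema3b, a secreted class 3 semaphorin gene, was the other member past the 2-fold rule in all 3 lines. Its counts were 212 in M8, 286 in M32 and 439 in M83, against 49 in control. No line came near the control level. The ratio was 3.88 in M8 (95% exact interval 2.83 to 5.40), 5.49 in M32 (4.04 to 7.60) and 7.91 in M83 (5.88 to 10.8). The log2 difference was 2.52 (SE 0.544), with an edgeR adjusted p of 1.00 and a DESeq2 adjusted p of 0.00121. Sema3b (ENSMUSG00000057969) lies at chr9:107597674-107609229 on the minus strand, and Sema3f, also on chromosome 9, had 14 counts in M32 and 0 in the other libraries.

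Sema3a, which encodes the class 3 semaphorin that acts through neuropilin-1, was the semaphorin with the highest level. It had 10187 counts in M8, 18653 in M32 and 18937 in M83, against 9329 in control. M8 was level with control, with a ratio of 0.979 (95% exact interval 0.951 to 1.01), while M32 and M83 stood at 1.88 (1.83 to 1.93) and 1.79 (1.75 to 1.84). Both stayed under the 2-fold limit, and the edgeR log2 difference over the 3 lines was 0.63 (SE 0.394, adjusted p = 1.00). Sema3e, the class 3 semaphorin that binds plexin-D1 without a neuropilin, showed 20, 42 and 45 counts in the lines, against 15 in control, with ratios of 2.63 (1.43 to 5.11) in M32 and 2.65 (1.45 to 5.11) in M83. Sema3c, Sema3d and Sema3g had at most 16 counts in a library.

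Among the membrane-bound semaphorins, Sema6d differed from control in opposite directions in different lines. It had 507 counts in M8, 63 in M32 and 195 in M83, against 187 in control. M8 was highest, M32 lowest, and M83 and control did not differ beyond counting error. The ratio was 2.43 in M8 (95% exact interval 2.05 to 2.89), 0.317 in M32 (0.234 to 0.424) and 0.920 in M83 (0.749 to 1.13). The neuron and glia marker sum given above was also higher than control in M8 and lower in M32, although in M83 it was higher. Only 4 of its 15 genes had at least 50 counts in a library. By the 2-fold rule 1 was higher in M8, 0 in M32 and 1 in M83, beside 3.73%, 4.86% and 5.19% of all genes. In each line 0 were lower, beside 2.05%, 1.15% and 1.27% of all genes in M8, M32 and M83. The epithelial sum had the same directions. Its marker Krt20 had 3306, 1008 and 3667 counts in M8, M32 and M83, against 1914 in control, past the 2-fold rule downwards in M32, and Krt18 had 1794, 992 and 911, against 710, past it upwards in M8. The part of either marker list in the Sema6d values was not tested. Sema4b, which carries a transmembrane anchor, had 1772, 771 and 1423 counts in M8, M32 and M83, against 993 in control, and its log2 difference of 0.26 went to -0.0035 without M8. Sema4c, known as a plexin-B2 ligand, had 641, 563 and 338 counts in the lines, against 519 in control, lowest in M83 at a ratio of 0.575 (0.4996 to 0.660). Sema5a and Sema6b, a class 5 and a class 6 semaphorin, stayed within ratios of 0.992 to 1.43 and 0.709 to 1.08.

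Sema7a, which encodes a GPI-anchored semaphorin that binds plexin-C1 and beta-1 integrins, lay near the counting floor. It had 12 counts in M8, 30 in M32 and 32 in M83, against 2 in control, and the ratio in M83 was 14.1 with a 95% exact interval of 3.60 to 122. All lines were above control, though too low for the 50-count limit (edgeR log2 difference 3.41, SE 1.25, adjusted p = 1.00). Plxnc1, the gene of its plexin receptor, had 6 counts in control and 0 in each line. The remaining semaphorins, Sema4a, Sema4d, Sema4g and Sema6c, had at most 36 counts in any library.

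Among the plexins, receptors of the semaphorins, Plxnb2 and Plxna1 stayed within 2-fold of control in every line. Plxnb2 had 26538, 24026 and 17318 counts in M8, M32 and M83, against 18114 in control, with ratios between 0.844 (M83) and 1.31 (M8). Plxna1, a receptor subunit for class 3 and class 6 semaphorins, had 7733, 7352 and 9204 counts in the lines, against 6403 in control, and its ratios stayed between 1.08 and 1.27. These were the plexins with the highest levels. An antisense gene, Gm26811, overlaps 10.7% of the Plxna1 exons and had at most 39 counts.

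Plxna2, a class A plexin gene that binds class 6 semaphorins, was set apart in M83. It had 875 counts in M8, 592 in M32 and 2123 in M83, against 469 in control. The M83 library lay above all others, 2.39-fold above the next highest. Its ratio to control was 3.99 in M83 (95% exact interval 3.61 to 4.42), 1.67 in M8 (1.49 to 1.87) and 1.19 in M32 (1.05 to 1.34). The log2 ratio of 1.99 in M83 fell just short of the stricter rule and passed it when libraries were scaled by their totals alone. Plxna2 (ENSMUSG00000026640) lies at chr1:194618218-194816869 on the plus strand.

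Plxnd1, which encodes the Sema3E receptor of blood vessels, was past the 2-fold rule in M8. Its counts were 1859 in M8, 1352 in M32 and 1147 in M83, against 798 in control. All lines were above control, with ratios of 2.09 in M8 (95% exact interval 1.92 to 2.27), 1.59 in M32 (1.46 to 1.74) and 1.27 in M83 (1.16 to 1.39), and the edgeR log2 difference was 0.72 (SE 0.329, adjusted p = 1.00). Of the 9 endothelial markers Emcn, Cldn5 and Erg had 0 counts in every library and the others at most 24. Their sum was 1.05 CPM in M8, 0.737 CPM in M32 and 1.21 CPM in M83, against 0.470 CPM in control. Pecam1 had 18, 11 and 7 counts in M8, M32 and M83, against 5 in control. That is the order of libraries of Plxnd1, but 7 and 5 counts are too few to place M83 above control. Vwf, with 4, 4 and 24 counts, against 2 in control, was highest in M83, as was the sum. The part of these markers in the Plxnd1 values was not tested. Plxna3, on the X chromosome, had 1376, 709 and 1303 counts in the lines, against 1008 in control, lowest in M32. Its log2 difference of 0.01 turned to -0.15 without M8 and to -0.10 without M83.

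Both neuropilin genes stood above control in every line. Nrp1 had 1694 counts in M8, 2218 in M32 and 2068 in M83, against 1242 in control, and its log2 difference was 0.54 (edgeR adjusted p = 1.00, SE 0.265). Nrp2, known as the Sema3F and VEGF-C co-receptor, had 9355, 7115 and 8329 counts in the lines, against 5514 in control, and its log2 difference was 0.44 (edgeR adjusted p = 1.00, SE 0.236). For both genes the groups did not overlap, with all 3 lines above control, as for 23.3% of all tested genes. The largest ratio was 1.68 for Nrp1 in M32 (95% exact interval 1.57 to 1.80) and 1.52 for Nrp2 in M8 (1.47 to 1.57). Of the 8 listed genes of the VEGF family and its receptors 4 were tested and 0 passed. Vegfd, the VEGF-D gene, was past the 2-fold rule in M32, with 127, 173 and 96 counts in the lines, against 61 in control.

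Most ephrin genes and the 3 tested B-class Eph receptor genes, Ephb2, Ephb3 and Ephb4, were highest in M32. That library was the highest of the 4 for 6 of 8 ephrins and 3 of 5 tested Eph receptors, against 23.1% of all tested genes. Ephb4 was nearly level in M32 and M8, at 62.1 and 61.9 CPM, and Efna4 was close, at 4.28 and 3.86 CPM. Ephb6, too low to be tested, had 9 counts in M83, 6 in M8 and in M32, and 0 in control. The members past the 2-fold rule upwards in M32 but in neither other line were Efnb1, Ephb3, Efna3 and Plxnb1. Efnb1 encodes ephrin-B1, Ephb3 a receptor for B-class ephrins, Efna3 ephrin-A3 and Plxnb1 the Sema4D receptor. Of the 10 mesenchymal and fibroblast markers 7 had at least 50 counts, and 3 were past the 2-fold rule upwards in M32, 4 in M8 and 2 in M83, beside 4.86%, 3.73% and 5.19% of all genes, and 0 downwards. Among those 7 the largest ratio in M32 was that of Col3a1, a fibrillar collagen gene, with 7748, 12998 and 2047 counts in M8, M32 and M83, against 1748 in control. The part of these markers in the ephrin values was not tested.

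Efnb1, Ephb3, Efna3 and Plxnb1 were chosen as past the 2-fold rule upwards in M32 alone, so their shared rise there follows from the choice. The start regions of these 4 genes, and of Tenm4 for the largest shared difference, are shown. They are RefSeq promoter windows on GRCm38.p6, from 250 bases before the start to 50 bases from it, and capitals mark the motifs found on either strand. The table holds a second start window for Tenm4 and for Efna3, and the first is shown. The GC box of SP1 and KLF factors was searched as GGGCGG. The TATA box, near which many strong promoters start, was searched as TATAAA. The site of AP-1 factors was searched for with the letters TGANTCA. For the E-box of MYC-like factors the letters were CACGTG. For the TCF/LEF factors of the Wnt pathway they were CTTTGAT. The CCAAT box was searched by the letters of its name. No 2 matches overlap in the windows shown.
Efnb1, chrX:99135811-99136110, plus strand: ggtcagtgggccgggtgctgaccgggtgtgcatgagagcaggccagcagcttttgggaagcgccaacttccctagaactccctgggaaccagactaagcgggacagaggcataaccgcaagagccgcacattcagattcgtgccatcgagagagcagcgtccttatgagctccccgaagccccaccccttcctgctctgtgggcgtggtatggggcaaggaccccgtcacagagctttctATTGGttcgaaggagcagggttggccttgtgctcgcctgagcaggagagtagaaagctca
Ephb3, chr16:21204545-21204844, plus strand: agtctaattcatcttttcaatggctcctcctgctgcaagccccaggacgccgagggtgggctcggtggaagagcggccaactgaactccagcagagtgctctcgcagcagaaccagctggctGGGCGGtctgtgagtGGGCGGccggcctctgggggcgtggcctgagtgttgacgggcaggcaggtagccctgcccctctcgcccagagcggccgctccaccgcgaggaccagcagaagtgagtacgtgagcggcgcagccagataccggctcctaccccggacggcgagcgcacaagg
Efna3, chr3:89322890-89323189, minus strand: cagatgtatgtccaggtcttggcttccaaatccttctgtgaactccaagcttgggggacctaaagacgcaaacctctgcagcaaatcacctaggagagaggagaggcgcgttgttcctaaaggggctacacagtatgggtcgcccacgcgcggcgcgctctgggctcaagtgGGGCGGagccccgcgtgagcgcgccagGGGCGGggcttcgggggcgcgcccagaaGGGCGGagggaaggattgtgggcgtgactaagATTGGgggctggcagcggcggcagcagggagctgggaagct
Plxnb1, chr9:109095186-109095485, plus strand: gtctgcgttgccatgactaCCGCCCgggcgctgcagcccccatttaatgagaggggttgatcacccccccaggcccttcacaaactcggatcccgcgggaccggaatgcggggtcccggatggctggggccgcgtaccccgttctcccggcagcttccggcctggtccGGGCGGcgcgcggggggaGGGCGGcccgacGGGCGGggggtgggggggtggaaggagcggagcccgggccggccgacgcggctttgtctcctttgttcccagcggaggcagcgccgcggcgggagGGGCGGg
Tenm4, chr7:96170994-96171293, plus strand: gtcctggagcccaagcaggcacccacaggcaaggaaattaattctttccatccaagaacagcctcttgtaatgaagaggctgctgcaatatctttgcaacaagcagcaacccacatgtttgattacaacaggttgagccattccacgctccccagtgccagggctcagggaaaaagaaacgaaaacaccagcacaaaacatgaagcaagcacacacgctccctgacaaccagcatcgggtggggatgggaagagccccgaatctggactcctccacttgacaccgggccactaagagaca

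The windows shown for the 4 genes had no motif in common. The GC box was found 2 times in Ephb3, 3 times in Efna3 and 5 times in Plxnb1, but not in Efnb1, and the CCAAT box 1 time each in Efnb1 and Efna3. None of the 5 windows shown held a TATA box, AP-1, E-box or TCF/LEF match. The GC box occurred in 69.7% of the 66 promoter windows found for 51 members and in 35.7% of all 32851 windows. The TATA box occurred in 3.03% of the members' windows and 13.6% of all windows, the CCAAT box in 30.3% and 37.4%, the AP-1 motif in 4.55% and 7.81%, the E-box in 6.06% and 7.15% and the TCF/LEF motif in 1.52% and 3.73%. The members' windows had a median GC content of 63.8% and 18 CpG pairs, against 52.7% and 7 CpG pairs in all windows. The Tenm4 window, with 52.0% GC and 6 CpG pairs, lay near the median of all windows, its second window had 52.3% and 12, and Plxnb1, with 74.7% and 36, far above it. A match is a stretch of letters and not a measured binding site.

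Efnb1, the ephrin-B1 gene, had 109 counts in M8, 256 in M32 and 79 in M83, against 68 in control. M32 stood apart, 2.47-fold above the next highest library, and M83 did not differ from control beyond counting error. The ratio to control was 3.54 in M32 (95% exact interval 2.70 to 4.70), 1.44 in M8 (1.05 to 1.97) and 1.03 in M83 (0.732 to 1.44). Over the 3 lines the log2 difference was 1.00 (SE 0.769, edgeR adjusted p = 1.00), and 0.27 without M32.

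Ephb3 had 300 counts in M8, 533 in M32 and 158 in M83, against 191 in control. M32 was highest and M83 lowest. The ratio was 2.63 in M32 (95% exact interval 2.22 to 3.11), 1.41 in M8 (1.17 to 1.70) and 0.730 in M83 (0.587 to 0.906). The gene lies on chromosome 16, where the median log2 ratio of the 397 tested genes was -0.53 in M83, close to the log2 ratio of -0.45 for Ephb3 there. Its part in the M83 value was not tested.

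Ephb2, which shares ephrin-B ligands with Ephb3, was likewise highest in M32 and lowest in M83, but in M8 it lay below control. It had 1075 counts in M8, 2063 in M32 and 671 in M83, against 1090 in control. The ratio was 0.884 in M8 (95% exact interval 0.812 to 0.962), 1.78 in M32 (1.65 to 1.92) and 0.543 in M83 (0.493 to 0.599), so M32 lay 3.28-fold above M83 while neither passed the 2-fold rule against control. The log2 difference over the lines was 0.10 and turned to -0.51 without M32. Efna3 had 47, 81 and 42 counts in M8, M32 and M83, against 28 in control, with a ratio of 2.72 in M32 (1.75 to 4.35). The antisense gene Gm15998 overlaps 14.1% of the Efna3 exons and had 43, 25 and 29 counts in the lines, against 24 in control. Plxnb1 had 70, 153 and 81 counts in the lines, against 60 in control, with a ratio of 2.40 in M32 (1.77 to 3.29).

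**Figure D3:**
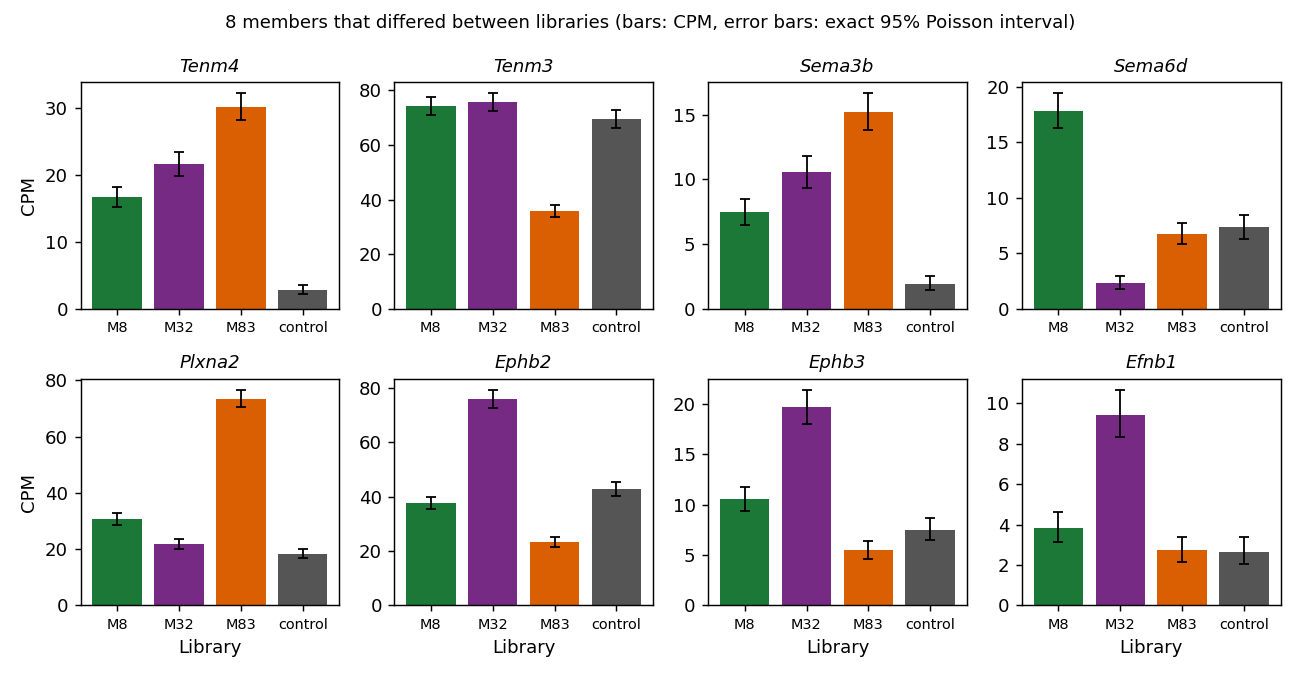
Level in CPM of 8 members that differed between libraries, with bars for M8, M32, M83 and control and exact 95% Poisson intervals for counting error only. Tenm4 and Sema3b are above control in all 3 lines, Tenm3 is lowest in M83, Sema6d is high in M8 and low in M32, Plxna2 is high in M83, and Ephb2, Ephb3 and Efnb1 are high in M32.

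The more abundant ephrins stayed within 2-fold of control. Efnb2, the ephrin-B2 gene and the ephrin with the highest level, had 2968 counts in M8, 4925 in M32 and 4394 in M83, against 3644 in control. M8 was lowest and M32 highest, with ratios between 0.730 (M8) and 1.27 (M32), and the log2 difference over the lines was 0.03 and turned to -0.18 without M32 and to -0.0094 without M83. Efna5, the ephrin-A5 gene, had 637, 1078 and 699 counts in the lines, against 617 in control, so M32 alone was raised, at a ratio of 1.64 (95% exact interval 1.49 to 1.82). Its log2 difference of 0.25 turned to -0.08 without M32.

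Efna1, Efna3 and Efna4 lie close together on chromosome 3, between 89271733 and 89338028. Each was highest in M32, though Efna4 did not differ between M32 and M8 beyond counting error, at 4.28 and 3.86 CPM. Efna1, which encodes the main ligand of EphA2, had 106, 142 and 92 counts in M8, M32 and M83, against 78 in control, and Efna4 110, 116 and 84, against 76. In M32 the ratio was 1.71 for Efna1 (95% exact interval 1.29 to 2.29) and 1.44 for Efna4 (1.07 to 1.94), both short of 2-fold. An antisense gene, 4731419I09Rik, overlaps 10.5% of the Efna4 exons and had 30, 7 and 22 counts in the lines, against 4 in control. Efna2 on chromosome 10 was the ephrin past the 2-fold rule downwards, in M8, with 29, 52 and 82 counts in the lines, against 65 in control (ratio in M8 0.400, 0.249 to 0.628). Efnb3 had 26, 32 and 39 counts in the lines, against 47 in control, below control in every line and under the 50-count limit.

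The Eph receptor with the highest level, Epha2, had 8861 counts in M8, 6998 in M32 and 11001 in M83, against 10092 in control. All lines lay below control, least in M83, where the log2 ratio turned from -0.06 to 0.0068 when libraries were scaled by their totals alone. The ratios were 0.787 in M8 (95% exact interval 0.765 to 0.810), 0.652 in M32 (0.633 to 0.673) and 0.962 in M83 (0.936 to 0.988), and the log2 difference was -0.32 (SE 0.266, edgeR adjusted p = 1.00). Ephb4, the receptor of ephrin-B2, had 1764, 1686 and 1422 counts in the lines, against 1225 in control, with ratios between 1.02 and 1.29. The remaining Eph receptors with a count, Epha1, Epha4, Epha5, Epha10 and Ephb6, had at most 21 counts, and Epha1 overlaps exons of the far more abundant gene Zyx on the other strand. Summed over the class, EphA receptors stood at 66.6, 55.4 and 81.6 CPM per kilobase in M8, M32 and M83, against 84.7 CPM per kilobase in control, and B-class ephrins at 16.6, 29.6 and 23.4 CPM per kilobase in the lines, against 22.2 CPM per kilobase in control.

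Genes that carry the signal inside the cell were counted from lists. Of 40 genes of semaphorin signal transduction 32 were tested and 0 passed, with 9 above and 4 below control in all lines, beside 23.3% and 21.3% of all tested genes. Nrcam, a cell adhesion gene whose protein joins semaphorin receptors, had 43, 38 and 304 counts in M8, M32 and M83, against 14 in control, a log2 ratio of 4.09 in M83. Tiam1, a Rac exchange factor gene held by this list and the next, had 159, 195 and 35 counts in M8, M32 and M83, against 52 in control, and was past the 2-fold rule in M8 and M32.

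Of 36 listed genes of Eph and ephrin signal transduction 35 were found, 29 were tested and 0 passed, with 7 above and 2 below control in all lines, beside the same 23.3% and 21.3%. Anks1b, which encodes an adaptor protein related to an EphA-binding one, had 237, 45 and 255 counts in M8, M32 and M83, against 116 in control, and was past the 2-fold rule downwards in M32. Grip1, a PDZ protein gene whose product binds ephrin-B tails, had 101, 44 and 153 counts in the lines, against 63 in control, and was past it in M83. The median log2 ratio of the tested genes lay between 0.07 and 0.21 for the semaphorin list and between -0.06 and 0.16 for the Eph list in single lines. In the list of 8 plexin-related genes outside the name rule 3 were tested and 0 passed. Only 2 of the list reached 50 counts in a library, and neither was past the 2-fold rule in any line.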

How the data were processed

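The authors deposited raw counts per gene, whole numbers with no normalisation, in 1 table with 1 column per sample. Per the submitters' processing notes the build was GRCm38, and RNA was poly(A)-selected, per the labels' protocols. The aligner, counter, annotation and strand setting were not given, so overlapping genes on opposite strands may have been counted together. The labels speak of repeats, but the table holds 1 column per sample.

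Positions and exon lengths (union of all exons) came from GENCODE vM21, which holds 41434 of the 41457 row identifiers. At most 2.60% of the 50-base words of a member occurred in transcripts of other genes. The lines were compared with control by edgeR 4.0.16 (R 4.3.3, TMM, filterByExpr, glmQLFit) on all genes, with Benjamini-Hochberg adjustment over the 13576 tested, and by DESeq2 1.42.0 as the alternative. edgeR and the rules of size were tested on simulated data. In the simulation for edgeR the control was drawn with the same spread as the lines. It therefore cannot check the assumption that the lone control varies like the lines. Ratio intervals are exact Clopper-Pearson intervals of the share of 2 counts, and a count of 0 allows up to 3 counts. Without molecular identifiers both cover no more than counting error. Named members were those past the 4-fold rule in a line or the 2-fold rule in all lines, the 6 with the smallest p, the 4 highest per family, and small groups described whole. The members and lists were chosen with earlier results of these data known.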

Additional observations from a re-analysis of the deposited data

Results flagged for a closer look

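Sema6d, the class 6 semaphorin gene, was past the 2-fold rule in opposite directions in a pair of lines. Its log2 ratio to control was 1.27 in M8 and -1.63 in M32, with 507 counts in M8 and 63 in M32, against 187 in control. Each line is 1 library and both ratios share the control, so the difference between the lines was not tested.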

How the results depend on the processing

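With DESeq2 in place of edgeR the members passing for the lines together numbered 2 instead of 0, and the log2 differences were 3.03 for Tenm4 and 2.52 for Sema3b. Under the other edgeR settings tried (library size alone, no filter on low counts, and each line left out) the count stayed at 0. With a minimum of 20 counts the members past the 2-fold rule in M83 numbered 5 instead of 3, with Sema3e and Sema7a added. The same 2 genes were added in M32, where they made 9 instead of 7. Sema7a then also met the stricter rule in M32 and in M83, with 3 members instead of 2 in each. The other 40 counts and medians recomputed stayed within 1.5 times the value reported or moved by less than the spread between lines. The counts given here for M32 and for the stricter rule are among these 40. Log2 differences near 0 turned with the lines included. Without M8 they were -0.0035 for Sema4b and -0.15 for Plxna3. Without M32 they were -0.51 for Ephb2, -0.18 for Efnb2 and -0.081 for Efna5. Without M83 they were -0.10 for Plxna3, -0.0094 for Efnb2 and 0.10 for Tenm3. With no filter on low counts they were -0.022 for Plxna3 and -0.0036 for Efnb2. In M83 the log2 ratio of Epha2 was 0.0068 when libraries were scaled by their totals alone, which left 1 member instead of 2 below control in all lines. That scaling shifted the median of all genes by at most 0.06 on the log2 scale. No paired analysis was possible because there is 1 control library and the labels give no replicate numbers. With 1 library per line, members under about 50 counts have wide counting intervals.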

Other observations

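Other guidance systems were more often above control than below. Of 27 listed genes of the slit, netrin and repulsive guidance molecule systems 14 were tested and 0 passed in edgeR or DESeq2. In all 3 lines 8 lay above and 0 below control, beside 23.3% and 21.3% of all tested genes. Only 11 genes of the list reached 50 counts. The 8 include low-count genes, Robo2 with 28, 16 and 26 counts in M8, M32 and M83, against 15 in control, and Robo3 with 16, 4 and 22, against 2. Ntn5, a netrin gene, had 703 counts in M8, 1214 in M32 and 683 in M83, against 323 in control. Slit3, which encodes a ligand of Robo receptors, had 3926, 4584 and 1777 counts in the lines, against 1261 in control, and was past the 2-fold rule in M8 and M32. Ntn4, a netrin of basement membranes, had 186, 454 and 624 counts in the lines, against 162 in control, and was past that rule in M32 and M83. The list's tested genes had a median log2 ratio of 0.47 (M8), 0.56 (M32) and 0.51 (M83).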
